A study of Arabidopsis thaliana with 8 samples.

Results

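Transcript levels of 4 nuclear genes of Arabidopsis thaliana were compared, whose products work in thylakoid electron flow around photosystem I: NdhL (AT1G70760), NdhN (AT5G58260), PGRL1B (AT4G11960) and TROL (AT4G01050). They were chosen by gene name, with earlier results of these data known, so the shares of all probe sets given below serve as a description only. Each matched 1 probe set, a group of short probes for 1 transcript, so the members are 4 of the 22810 probe sets on the array. The measurements came from 8 Affymetrix arrays of leaves (the RNA protocol calls the material green tissue) of plants 4 weeks old. Wild-type Columbia (Col-0) plants or plants of the mutant abh1 received a spray of water (mock) or of the stress hormone abscisic acid (ABA) at 50 µM, and were collected 4 h later. Each of the 4 combinations of genotype and spray is a group of 2 arrays. The wild type is the control for the mutant, and the allele and origin of abh1 are not given in the labels. The labels number the 2 arrays of each group 1 and 2, without saying what the number stands for, and the RNA on an array was a pool of 3 biological replicates.

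Electrons that leave photosystem I at ferredoxin can return to the plastoquinone pool, which lets the chloroplast build a proton gradient, and so ATP, without making NADPH. One route for this cyclic flow is the NDH complex, a large thylakoid assembly related to respiratory complex I, with some subunits encoded in the plastid genome and others in the nucleus. NdhL is a membrane-spanning subunit and NdhN a subunit of the stromal part. PGRL1B is 1 of a pair of PGRL1 proteins, which act with PGR5 in the other, antimycin-sensitive route. TROL is a rhodanese-like thylakoid protein that tethers ferredoxin-NADP reductase (FNR), the enzyme that passes electrons on to NADP. ABH1 is the larger protein of the pair that binds the cap of messenger RNAs in the nucleus, and abh1 plants are known for heightened sensitivity to ABA. The comparisons ask how the hormone and the mutation, alone and together, go with the transcript levels.

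The values are signal, a linear measure in arbitrary units, which the authors had scaled to a common level, with a trimmed mean of 500.039 to 500.054 on each array. Arrays numbered 1 had median signals of 130.68 to 160.48, and arrays numbered 2 of 179.52 to 215.81. Arrays that shared a number but not a group correlated at a median of 0.941, above the median of 0.929 for arrays of 1 group. The wild-type ABA arrays stood apart from each other, with the lowest correlation within a group, 0.859. No probe set was named for ABH1, so the mutant label was not checked by its own gene. RCA, rubisco activase, was the only one of 10 leaf mesophyll markers with a named probe set, and its signal ran from 13880 to 20230. Of 5 guard cell markers 2 had a named probe set, and none of the epidermis, vascular, root and flower markers could be used, so the tissue label could not be checked further.

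NdhN had its highest signals in mock-treated wild type. Its signal was 3481 and 2810 on the wild-type mock arrays, 1836 and 1946 with ABA, 2199 and 1805 in abh1 mock, and 1580 and 1789 in abh1 with ABA. Both wild-type mock arrays lay above all the other arrays, and the other 3 groups lay close together. The group means were 3145 ± 475, 1891 ± 77.8, 2002 ± 279 and 1685 ± 148 (SD, n = 2, here and for the other members, in that order of groups). Ordered by mean, the neighbouring abh1 mock and wild-type ABA groups overlapped, and abh1 ABA lay below wild-type ABA without overlap.

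TROL also had its highest signals in mock-treated wild type, and its lowest in abh1. Its signal was 4559 and 5336 in wild-type mock, 4145 and 4186 in wild-type ABA, 3625 and 3830 in abh1 mock, and 3867 and 3976 in abh1 ABA. No group overlapped another, a pattern whose share of all probe sets was not computed. All 4 abh1 arrays lay below all 4 wild-type arrays, as for 1.82% of the probe sets tested. From highest to lowest, the means were wild-type mock (4947 ± 549), wild-type ABA (4165 ± 29.15), abh1 ABA (3922 ± 77.25) and abh1 mock (3727 ± 145). The spread was widest in the group with the highest level.

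NdhL had its lowest signals in mock-treated abh1. Its signal was 4898 and 4324 in wild-type mock, 6182 and 3655 in wild-type ABA, 3642 and 2940 in abh1 mock, and 4569 and 4315 in abh1 ABA. The abh1 mock arrays lay below all the others, though only narrowly, at 3642 against 3655 for the nearest wild-type ABA array. The share of all probe sets with this pattern was not computed. Of the wild-type ABA arrays 1 lay above and the other below both wild-type mock arrays. The means were 4919 ± 1787 in wild-type ABA, 4611 ± 406 in wild-type mock, 4442 ± 180 in abh1 ABA and 3291 ± 496 in abh1 mock. Of these neighbours only abh1 ABA and abh1 mock did not overlap.

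PGRL1B, the PGRL1 gene with a named probe set, had interleaved groups. Its signal was 1254 and 1354 in wild-type mock, 1822 and 1361 in wild-type ABA, 979.4 and 1343 in abh1 mock, and 1214 and 1605 in abh1 ABA. The highest array was wild-type ABA replicate 1 and the lowest abh1 mock replicate 1. In the order of the means, 1592 ± 326 in wild-type ABA, 1409 ± 276 in abh1 ABA, 1304 ± 71.15 in mock wild type and 1161 ± 257 in mock abh1, every neighbouring pair overlapped.

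**Figure D1:**
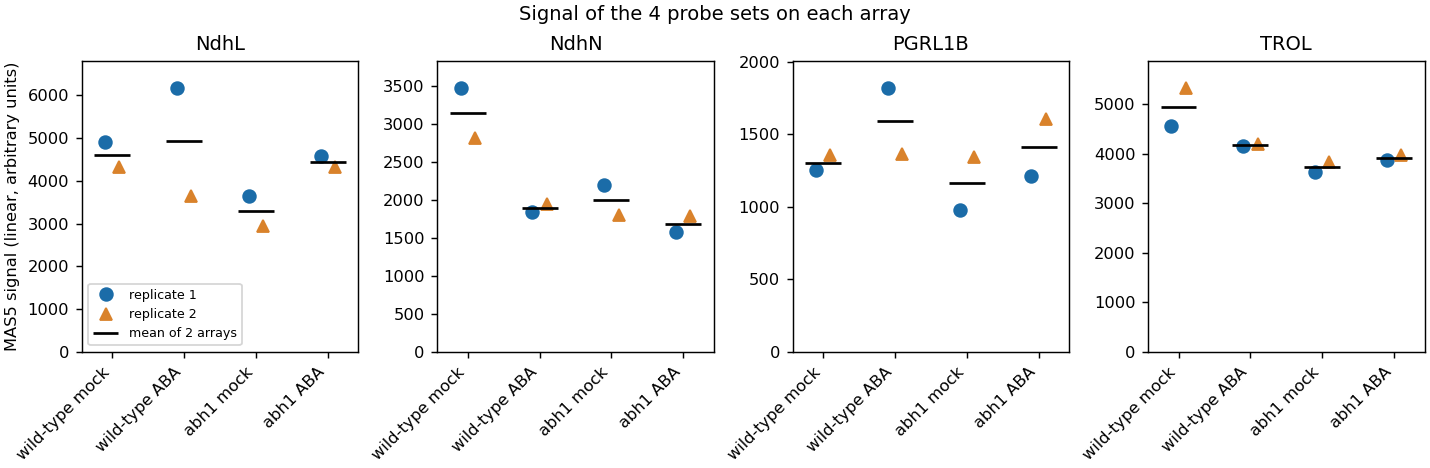
Signal of NdhL, NdhN, PGRL1B and TROL on each of the 8 arrays, on linear axes that start at 0. Points are arrays (circles for replicate 1, triangles for replicate 2) and bars are the means of 2 arrays. The mean of NdhN is 3145 in wild-type mock and between 1685 and 2002 in the other groups. The 4 groups of TROL do not overlap, a pattern whose share of all probe sets was not computed.

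The first comparison was abh1 against wild type in mock-treated plants. NdhN, TROL and NdhL each had both abh1 arrays below both wild-type arrays, whereas PGRL1B overlapped. Across the array 14.3% of the 13648 probe sets tested were lower in abh1 without overlap in this comparison. The log2 difference, abh1 minus wild type, was -0.65 ± 0.24 (SE, as for all differences below) for NdhN, a signal 1.57-fold lower, and -0.49 ± 0.29 for NdhL. It was -0.40 ± 0.205 for TROL and -0.18 ± 0.29 for PGRL1B.

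limma's moderated test with Benjamini-Hochberg adjustment over all tested probe sets called 0 of the 4 members and 0% of all tested probe sets in that comparison. NdhN was the only member among the 398 probe sets with an unadjusted p under 0.05 (adjusted p = 0.9997). When the model also holds the replicate number (the replicate block), the difference between the numbers is taken out of the spread. The block called 0.117% of all tested probe sets and none of the members, whose adjusted p was 0.406 for NdhN, 0.543 for TROL, 0.565 for NdhL and 0.926 for PGRL1B.

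Within each replicate number the sign was the same for all 4 genes: in mock, abh1 lay below wild type in number 1 and in number 2. Of all tested probe sets 31.1% had abh1 below wild type in both numbers. For NdhN the 2 differences were close, -0.66 and -0.64. They were -0.43 and -0.56 for NdhL and -0.33 and -0.48 for TROL. PGRL1B differed by -0.35 in number 1 and by -0.01 in number 2.

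The same comparison in ABA-treated plants gave log2 differences of -0.17 ± 0.24 for NdhN, -0.17 ± 0.29 for PGRL1B, -0.10 ± 0.29 for NdhL and -0.09 ± 0.205 for TROL. Both abh1 arrays lay below both wild-type arrays for NdhN and TROL, against 6.88% of all tested probe sets, and NdhL and PGRL1B overlapped. limma called 0 of the 4 members and 0% of all tested probe sets, or 0.00733% with the replicate block, and no member had an unadjusted p under 0.05, which 225 probe sets had. Within the numbers NdhN differed by -0.215 and -0.12 and TROL by -0.10 and -0.07. NdhL and PGRL1B changed sign between the numbers: NdhL was at -0.435 in number 1 and 0.24 in number 2, and PGRL1B at -0.58 and 0.24. Both wild-type ABA arrays enter here, and the first of them had the highest signal of both genes.

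Averaged over mock and ABA, the abh1 difference was -0.41 ± 0.17 for NdhN, -0.29 ± 0.20 for NdhL, -0.245 ± 0.145 for TROL and -0.18 ± 0.21 for PGRL1B. NdhN and TROL were lower in abh1 in all 4 same-numbered pairs, as were 8.76% of all tested probe sets. TROL was the member with all 4 abh1 arrays below all 4 wild-type arrays, against 1.82% of tested probe sets. limma called 0 of the 4 members and 0.0147% of all tested probe sets, 2 in number. Before adjustment 642 probe sets had a p under 0.05, NdhN alone of the members (adjusted p = 0.9999). With the replicate block 0.513% of all were called and again no member, with adjusted p = 0.322 for NdhN, 0.486 for TROL, 0.511 for NdhL and 0.802 for PGRL1B.

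In wild type the signals of NdhN and TROL were lower with ABA and those of PGRL1B higher, none of them past the test. For NdhN and TROL both ABA arrays lay below both mock arrays, as for 13.3% of all tested probe sets. For PGRL1B both lay above, as for 10.4% of all, though the second ABA array exceeded the higher mock array by only 1361 against 1354. The log2 difference, ABA minus mock, was -0.72 ± 0.24 for NdhN, a signal 1.65-fold lower with a 95% confidence interval from -1.29 to -0.16. It was -0.24 ± 0.205 for TROL, 0.27 ± 0.29 for PGRL1B and 0.05 ± 0.29 for NdhL, which turned to -0.03 with quantile normalisation.

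limma called 0 of the 4 members for ABA in wild type and 0% of all tested probe sets. Before adjustment 574 had a p under 0.05, with NdhN the only member (adjusted p = 0.9992). With the replicate block 0.00733% of all were called and the adjusted p of NdhN was 0.248. Within the numbers NdhN differed by -0.92 and -0.53 and TROL by -0.14 and -0.35. PGRL1B differed by 0.54 in number 1 and 0.01 in number 2, and NdhL by 0.335 and -0.24. Without wild-type ABA replicate 1 the difference of NdhL was -0.33, and without replicate 2 it was 0.425, so the sign for this gene rested on which of these arrays was used.

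The mock wild-type arrays are shared by the ABA comparison in wild type and the abh1 comparison in mock. For NdhN the 2 differences were -0.72 and -0.65, and for TROL -0.24 and -0.40. Both genes had each wild-type mock array above every array of the 3 other groups, a pattern found in 4.02% of tested probe sets.

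In abh1, NdhN was the member with lower signals under ABA, though the nearest arrays, at 1789 and 1805, were close. Of all tested probe sets 21.9% were lower without overlap, and the difference of NdhN was -0.24 ± 0.24. NdhL and TROL were higher with ABA without overlap, as were 15.8% of all, by 0.44 ± 0.29 and 0.07 ± 0.205, the latter turning to -0.006 with quantile normalisation. PGRL1B was at 0.28 ± 0.29 with overlapping arrays.

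limma called 0 of the 4 members for ABA in abh1 and 0% of all tested probe sets, and no member was among the 576 with an unadjusted p under 0.05. With the replicate block 0.125% were called, again without a member, and NdhL had the lowest adjusted p of the 4, 0.434. Within the numbers NdhL differed by 0.33 and 0.55, PGRL1B by 0.31 and 0.26 and TROL by 0.09 and 0.05. NdhN differed by -0.475 in number 1 and by -0.01 in number 2.

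Averaged over the genotypes, the ABA difference was -0.48 ± 0.17 for NdhN, 0.28 ± 0.21 for PGRL1B, 0.24 ± 0.20 for NdhL and -0.085 ± 0.145 for TROL. NdhN was lower with ABA in all 4 same-numbered pairs, as were 18% of all tested probe sets, and PGRL1B was higher in all 4, as were 12.6%. No member had all 4 ABA arrays below or above all 4 mock arrays, which 2.89% and 3.88% of tested probe sets had. limma called 0 of the 4 members and 0.11% of all tested probe sets, 15 in number, while 1162 had an unadjusted p under 0.05. NdhN was the only member among these (adjusted p = 0.492). With the replicate block 2.34% were called, and the adjusted p was 0.131 for NdhN, 0.356 for NdhL, 0.3825 for PGRL1B and 0.691 for TROL.

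The members' ABA calls depended on a single array. With the replicate block and without wild-type ABA replicate 2, a setting chosen after seeing the data, 3 members passed the threshold for the averaged ABA effect. NdhN was then at -0.54 (adjusted p = 0.0240), PGRL1B at 0.46 (adjusted p = 0.0336) and NdhL at 0.385 (adjusted p = 0.0416). With the block and without wild-type ABA replicate 1 instead, PGRL1B was at 0.09 and NdhL at 0.10, and without the block NdhL was at 0.05, none of them past the threshold. The setting without replicate 2 called 3932 probe sets in all, against 320 with the block and all arrays. For ABA in wild type NdhN was then at -0.835 (adjusted p = 0.0408), with 2132 probe sets called. No other array left out brought a member past the threshold in any of the treatment and genotype comparisons.

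Of the 2 guard cell markers with a named probe set, 1 passed the test for the averaged ABA effect, and only with the replicate block. That fit called 2.34% of all tested probe sets. FMA, a transcription factor of guard cell formation, ran from 219.9 to 376.6 on the mock arrays and from 206.8 to 240.5 with ABA, with overlap between the treatments and a mean difference of -0.35 ± 0.21 (adjusted p = 0.677, or 0.299 with the block). AT1G22690, entered in that list by its locus code, ran from 996.8 to 1871 in mock and from 431.3 to 909.8 with ABA, a difference of -0.92 ± 0.305. Its adjusted p was 0.0297 with the block and 0.454 without it. RCA, the mesophyll marker, was at -0.155 ± 0.149 for the same contrast. The part of cell makeup in the members' differences was not tested, and in whole leaves fewer cells of a type and less RNA per cell cannot be told apart.

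The interaction is the ABA difference in abh1 minus that in wild type. It was 0.48 ± 0.35 for NdhN, 0.39 ± 0.41 for NdhL, 0.32 ± 0.29 for TROL and 0.01 ± 0.41 for PGRL1B. All 4 intervals included 0, the widest from -0.95 to 0.97 for PGRL1B, so that differences between the genotypes of the size of the ABA effects themselves remained within them. limma called 0 of the 4 members and 0% of all tested probe sets, and none of the 38 with an unadjusted p under 0.05 was a member. With the block it also called 0%, with 248 at that level. Within the numbers the interaction of NdhN was 0.445 and 0.515 and that of TROL 0.23 and 0.40, while NdhL was at -0.01 and 0.79 and PGRL1B at -0.23 and 0.25.

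**Figure D2:**
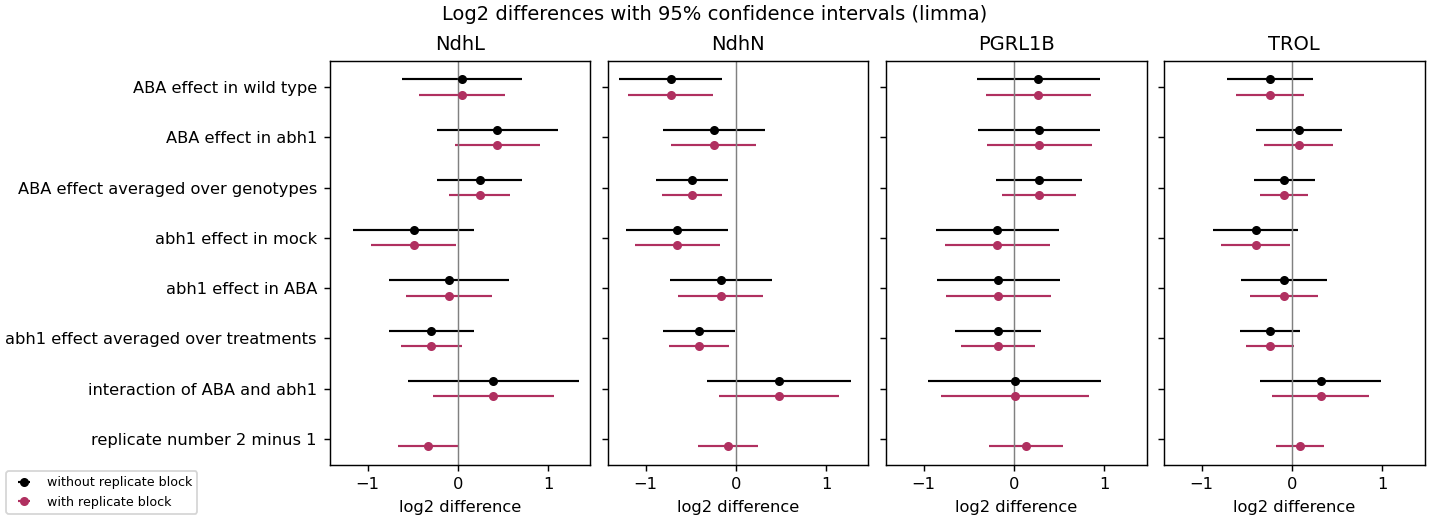
Log2 differences of the 4 members in each comparison from limma, with 95% confidence intervals, without the replicate block (black) and with it (red). The number comparison exists only with the number in the model; NdhN lies farthest below 0 for ABA in wild type (-0.72), and every interaction interval spans 0.

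**Figure D3:**
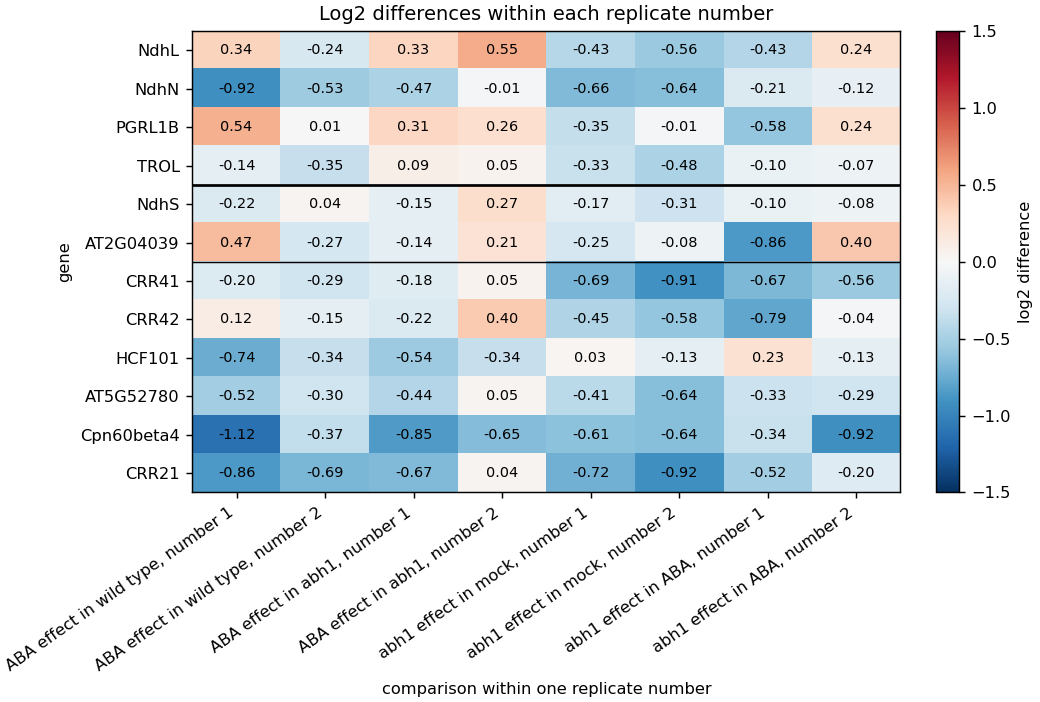
Log2 differences within replicate number 1 and within number 2 for the 4 members (top block), 2 other nuclear NDH genes (middle) and 6 NDH assembly and RNA maturation genes (bottom). Each cell compares 1 array with 1 array and has no error; the 4 members are all below 0 for abh1 in mock in both numbers, from -0.01 to -0.66.

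The replicate number itself was compared as 2 minus 1 across the groups. The log2 difference was -0.33 ± 0.145 for NdhL, -0.08 ± 0.14 for NdhN, 0.14 ± 0.18 for PGRL1B and 0.09 ± 0.12 for TROL. limma called 0 of the 4 members against 25% of all tested probe sets, 2251 higher and 1156 lower in number 2, and no member was among the 6060 with an unadjusted p under 0.05. The balance of those calls turned with the scaling, with 614 higher and 3770 lower under median centring and 1063 higher and 1303 lower under quantile normalisation. NdhL was the nearest (adjusted p = 0.116), with number 2 lower in all 4 groups, by -0.18, -0.76, -0.31 and -0.08 in the group order used above. TROL was higher in number 2 in all 4 groups, by 0.23, 0.01, 0.08 and 0.04 in the same order. NdhN and PGRL1B changed sign between groups. The median of all tested probe sets was 0.178, so the scale of the arrays matters for these signs: with each array centred on its median, NdhL was at -0.74 (adjusted p = 0.0226), and PGRL1B and TROL turned to -0.275 and -0.32.

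The other genes of both routes were sparsely named on the array. Of 20 nuclear NDH subunit entries 4 had a probe set of 1 gene: NdhL, NdhN, NdhS and AT2G04039, the last entered by its locus code. NdhS forms the site of the complex near which ferredoxin docks. Its signal was 3544 and 4076 in wild-type mock, 3046 and 4194 in wild-type ABA, 3160 and 3290 in abh1 mock, and 2848 and 3961 in abh1 ABA. The arrays overlapped between the treatments in both genotypes, and abh1 mock lay below wild-type mock. AT2G04039 ran from 2138 to 5751, both extremes in wild-type ABA.

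For abh1 in mock all 4 nuclear NDH genes, the members NdhL and NdhN among them, were below 0, as were 6562 of all 13648 tested probe sets. Their median log2 difference was -0.36 against 0.015 over all tested probe sets, and 0 of 4 passed the test. With ABA the median was -0.13 against 0.04 over all, again with 4 of 4 below 0, as were 6040 of all tested probe sets. For ABA in wild type 2 were above and 2 below 0, with a median of -0.02 against -0.09 over all. Within number 2 the abh1 difference in ABA split evenly, 2 above and 2 below 0. In the number comparison AT2G04039 was called, lower in number 2 by -0.70 (adjusted p = 0.0426).

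Genes for NDH assembly and for the maturation of plastid RNA mostly had lower signals in abh1, none of them past the test with all arrays. Of 14 entries 8 had a probe set and 6 were tested, CRR22 and CRR28 lying below the signal filter. CRR41 and CRR42 serve the assembly of the stromal part of the complex. CRR41 had 817.6 and 788.2 in wild-type mock, 709.5 and 641.5 in wild-type ABA, 501.7 and 416.6 in abh1 mock, and 441.4 and 431.4 in abh1 ABA. All 4 abh1 arrays of CRR41 lay below all 4 wild-type arrays, as did those of TROL and of 1.82% of all tested probe sets.

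The abh1 difference of CRR41 averaged over treatments was -0.71 ± 0.17 (adjusted p = 0.534). With the replicate block the adjusted p was 0.0886. With the block and 1 array left out, settings chosen after seeing the data, it was at -0.70 without wild-type ABA replicate 1 and at -0.715 without replicate 2. Cpn60beta4, a chaperonin subunit needed to fold the plastid-encoded NdhH, was at -0.63 ± 0.41. CRR21, a pentatricopeptide protein that edits ndhD RNA, was at -0.59 ± 0.24, CRR42 at -0.46 ± 0.37 and AT5G52780, entered by its locus code, at -0.415 ± 0.23. Without the block, single arrays moved the last pair widely, CRR42 from -0.17 without wild-type ABA replicate 1 to -0.75 without replicate 2, and AT5G52780 from -0.24 without abh1 mock replicate 2 to -0.59 without replicate 1.

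These 5 genes were lower in abh1 in all 4 same-numbered pairs, against the 8.76% of all tested probe sets. HCF101, which supplies iron-sulfur clusters to photosystem I, was not: its pair differences were 0.03 and -0.13 in mock and 0.23 and -0.13 in ABA. The median of the 6 genes was -0.525 against 0.022 over all tested probe sets, and 0 of 6 passed the test with or without the block. Without and with the block 2 and 5 of them had an unadjusted limma p under 0.05, as had 642 and 1554 of all 13648 tested. This list, too, was chosen with earlier results of these data known.

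With ABA the assembly genes had a median difference of -0.40, averaged over genotypes, against -0.08 over all, and 0 of 6 passed. HCF101 had all 4 ABA arrays, from 1246 to 1848, below all 4 mock arrays, from 2085 to 2348, as had 2.89% of all tested probe sets. Its difference was -0.49 ± 0.19 (adjusted p = 0.535, or 0.126 with the block). The difference was -0.60 with the block and without wild-type ABA replicate 2, a setting chosen after seeing the data. Cpn60beta4 was at -0.75 ± 0.41 (adjusted p = 0.659, or 0.0802 with the block). In the number comparison CRR42 was lower in number 2 by -0.87 (adjusted p = 0.0221) and Cpn60beta4 higher by 0.99 (adjusted p = 0.0203).

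Few genes around the members could be read. PGRL1B was the only 1 of 3 entries of its own route with a probe set, and TROL the only 1 of 7 among ferredoxins, FNR and FNR tethers. Of 13 nuclear photosystem I entries 2 had one, PSAE-1 on the ferredoxin side and PSAN on the plastocyanin side. Their averaged abh1 differences were -0.115 ± 0.13 and -0.08 ± 0.12, and their averaged ABA differences 0.07 ± 0.13 and 0.10 ± 0.12. Of 8 entries for the cytochrome b6f complex, plastocyanin and plastoquinol oxidation 2 had one, AT2G26500 and NDC1. NDC1, a dehydrogenase that reduces plastoquinone, was at -0.18 ± 0.30 for abh1 and at -0.13 ± 0.30 for ABA, and none of these genes passed either test.

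**Figure D4:**
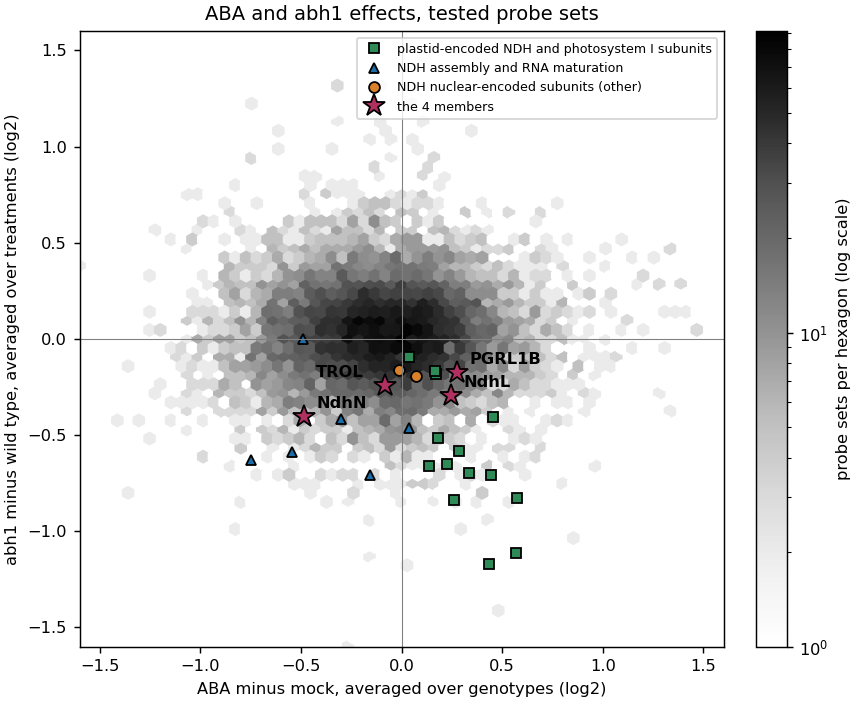
Averaged ABA difference (horizontal, log2) against averaged abh1 difference (vertical, log2) for all tested probe sets within the axes (grey hexagons, log colour scale) with the members and the gene lists marked. The 4 members lie below 0 on the abh1 axis, from -0.18 to -0.41, and on both sides of 0 on the ABA axis, from -0.48 to 0.28; both differences use all 8 arrays.

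In the signals as scaled by the authors, the plastid-encoded partners of the nuclear genes separated by replicate number. Of 17 entries for plastid NDH and photosystem I subunits 15 had a probe set and 14 were tested. Their median signal per array was 2520.6 and 6880 in wild-type mock, 2682.5 and 6453.8 in wild-type ABA, 752.3 and 5467.4 in abh1 mock, and 2100.2 and 6299.8 in abh1 ABA. Every array numbered 2 lay above every array numbered 1, and abh1 mock replicate 1 was the lowest. In the number comparison 12 of 14 were called, all higher in number 2, where 25% of all tested probe sets were called in either direction. The median of the 14 was 1.345 against 0.178 over all tested probe sets. With median centring it was 0.934 against -0.232 over all, while their median for abh1 in mock was -1.243.

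For abh1 in mock 6562 of all 13648 tested probe sets were below 0. The plastid list had 14 of 14 below 0 with a median of -1.18 and no call. That median was -1.66 within number 1 and -0.39 within number 2. Without abh1 mock replicate 1 it was -0.44 with the replicate block, with 13 of 14 below 0. Without the block it was 0.045, a value that sets an array numbered 2 against arrays of both numbers. For the members the same comparison with the block and without that array gave -0.78 for NdhN, -0.475 for NdhL, -0.41 for TROL and 0.03 for PGRL1B. Without the block these were -0.79, -0.645, -0.36 and 0.04. The sign of the nuclear NDH subunits and TROL therefore did not rest on that array, and that of PGRL1B did.

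**Figure D5:**
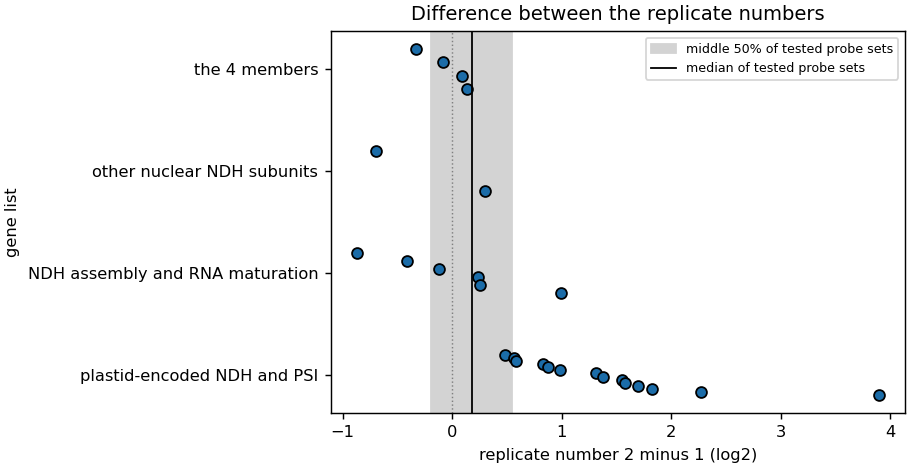
Log2 difference between arrays numbered 2 and 1, across the groups, for the members, the other nuclear NDH subunits, the NDH assembly genes and the plastid-encoded subunits; each point is 1 probe set, the black line is the median of all tested probe sets (0.178) and the grey band their middle 50%. The 4 members lie between -0.33 and 0.14, and the 14 plastid-encoded genes are all above 0 with a median of 1.345.

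The likeness of expression patterns was measured as Pearson's r of log2 signal over the 8 arrays, as a description only, since all genes share the arrays and their scaling. Among the members NdhN and TROL were most alike, at 0.675, followed by NdhL and PGRL1B at 0.51, and NdhN and PGRL1B were the least, at -0.26. On deviations from the mean of the same replicate number NdhL and PGRL1B were at 0.82, NdhN and TROL at 0.74, and NdhN and PGRL1B at -0.24. The nuclear NDH subunits NdhL and NdhN were at 0.15 and 0.11 on the 2 measures. On both measures each NDH subunit was thus closer to a member outside the complex than to the other subunit, a description of 8 arrays.

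Over all tested probe sets of 1 gene, those most like NdhL by log2 signal were AT4G31530 (0.988), AT3G53470 (0.982) and AT1G32520 (0.981). For NdhN they were AT5G57170 (0.975), AT1G49380 (0.973) and ATAB2 (0.945). For PGRL1B they were AT2G20740 (0.945), AT3G05910 (0.943) and AT2G31945 (0.938), and for TROL AT3G15520 (0.960), AT3G25660 (0.955) and ATBCAT-5 (0.949). AT4G31530, AT1G49380 and AT3G15520 stayed among the nearest 3 of their member on deviations within a number, at 0.983, 0.988 and 0.974. On that measure CRR21 was the second gene nearest to NdhN, at 0.982, and AT3G08600 (0.998), AT3G01210 (0.991) and AT5G18475 (0.975) were nearest to NdhL, PGRL1B and TROL. These values were picked as the highest over all such probe sets, on only 8 arrays, and no link between the genes was tested.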

How the data were processed

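Per the labels' protocols, biotin-labelled targets from total RNA were hybridised to 8 arrays. The deposited value is the intensity per probe set (MAS5 signal, linear), which per the submitters' processing notes came from the authors' MAS5 analysis. Its settings are not stated in the labels or files used. Scaling to a common trimmed mean was read from the values (2% trimmed from each end), so the arrays were not normalised again. Gene names came from the platform annotation, in which 13513 of 22810 probe sets had 1 gene symbol and 503 several. A probe set it does not list is unnamed here, and the annotation can be old.

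The 10th percentile of the signals, 9.38, was added before log2, which understates changes of weak probe sets. Of the probe sets other than the 64 controls, 13648 with a mean signal of at least 115.454 (the 40th percentile) were tested, all 4 members among them. limma 3.58.1 in R 4.3.3 was fitted to all 8 arrays with 4 group means and an intensity trend, leaving 4 residual degrees of freedom (3 with the replicate block), with two-sided tests and Benjamini-Hochberg adjustment over all 13648 at 0.05. Arrays with the same number deviated together from their groups, with correlations of 0.393 to 0.714 over the pairs of groups, above the 0.1 taken as pairing, so values with the replicate number as a block are given too. The labels state no shared origin for the numbers. Nothing says how the replicates were grown, so p-values reflect the scatter of these arrays alone, perhaps technical, and 8 arrays limit the precision. The fits were tested on simulated data with known changes in the ABA effect in wild type. Of 100 changes of log2 1, 0 were called without the block and 10 with it. Of 100 changes of log2 2, 30 and 68 were called. The members' differences fitted to all arrays were smaller than log2 1, so a missing call does not show that a difference is absent.

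The named genes are the 4 members, cell type markers, up to 4 genes of each list by mean signal and the 3 genes most like each member on 2 measures. CRR21 and Cpn60beta4 are named outside that rule, after their values were seen. The members and lists were chosen with earlier results of these data known. Alternatives were an offset of 50, no filter, median centring, quantile normalisation, no trend, the block, the block with quantile normalisation and each array left out. Leaving out arrays with the block was added after seeing the data.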

Additional observations from a re-analysis of the deposited data

Results flagged for a closer look

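TROL was flagged because its ABA difference had opposite signs in the genotypes, in both same-numbered pairs of each. The rule was applied to the members and named list genes only. The share of all tested probe sets with such signs was not computed. In wild type both same-numbered pairs were lower with ABA, by log2 differences of -0.14 and -0.35, and in abh1 both were higher, by 0.09 and 0.05. The difference between the genotypes was 0.32 ± 0.29 on the log2 scale, and limma's interaction test did not call it (adjusted p = 1, with or without the replicate block). Over the alternatives it ran from 0.20 to 0.43, with 0.522 as the lowest adjusted p. The signs of the abh1 pairs are open to the scaling, since quantile normalisation put the ABA difference of TROL in abh1 at -0.006.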

How the results depend on the processing

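Each group has 2 arrays, and single arrays moved many values. In 696 values of the members under the alternatives, 5 had an adjusted p under 0.05: the 4 block values without wild-type ABA replicate 2 given above, and NdhL in the number comparison with median centring (-0.742). The sign changed in 32 values, in 13 of 32 member results. The causes of these changes were not tested. Weak probe sets, which the offset and filter affect most, are the least certain.

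The count of probe sets called with the replicate block was 1 for ABA in wild type (0 without it), 17 for ABA in abh1 (0), 320 for ABA averaged (15), 16 for abh1 in mock (0), 1 for abh1 in ABA (0) and 70 for abh1 averaged (2). The block with quantile normalisation called 75, 80, 495, 26, 2 and 122 in that order. Quantile normalisation alone called 49 for ABA averaged, 1 for abh1 in mock and 1 for abh1 averaged. For ABA averaged the count was 27 with an offset of 50, 1 without the filter, 0 with median centring and 0 without the trend. For abh1 averaged it was 1 without the filter and 1 without the trend, and for the number comparison 1918 without the filter. With single arrays left out, with or without the block, counts ran from 0 to 2132 for ABA in wild type, 0 to 938 for ABA in abh1, 0 to 3932 for ABA averaged, 0 to 257 for abh1 in mock, 0 to 174 for abh1 in ABA, 0 to 765 for abh1 averaged, and 60 to 3102 for the number. With all arrays the block changed no call of a member.

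For ABA averaged, single arrays left out moved NdhL from 0.054 to 0.432 and PGRL1B from 0.092 to 0.461. Signs turned as follows. With quantile normalisation, alone or with the block, NdhL for ABA in wild type was at -0.034, TROL for ABA in abh1 at -0.006, AT2G04039 for ABA averaged at -0.006 and PSAE-1 for ABA averaged at -0.018, and NdhN in the number comparison at 0.049. With median centring TROL for ABA averaged was at 0.053, NdhS at 0.123 and NDC1 at 0.01, AT2G26500 for abh1 averaged at -0.032, and PGRL1B and TROL in the number comparison at -0.275 and -0.32. With single arrays left out, ABA in wild type ran from -0.332 to 0.425 for NdhL and -0.098 to 0.641 for PGRL1B. For abh1 in ABA the ranges were -0.477 to 0.28 for NdhL, -0.342 to 0.006 for NdhN and -0.542 to 0.196 for PGRL1B. For PGRL1B they were also -0.408 to 0.043 for abh1 in mock, -0.363 to 0.007 for abh1 averaged and -0.36 to 0.379 for the interaction. For ABA averaged they were -0.134 to 0.104 for NdhS, -0.287 to 0.425 for AT2G04039, -0.252 to 0.326 for CRR42, -0.058 to 0.204 for PSAE-1 and -0.36 to 0.104 for NDC1. For abh1 averaged they were -0.551 to 0.161 for AT2G04039, -0.142 to 0.141 for HCF101, -0.246 to 0.016 for PSAE-1, -0.079 to 0.081 for AT2G26500 and -0.409 to 0.055 for NDC1.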
